A study of Homo sapiens with 3 samples.

Results

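The miR-15/miR-16 and miR-103/miR-107 seed relatives are the endogenous miRNAs of Hep G2 cells that share the AGCAGC hexamer at or next to the seed with miR-195 and miR-497, the 2 miRNAs that were transfected in this study. They were taken by exact name as hsa-miR-16, hsa-miR-15b, hsa-miR-15a, hsa-miR-424, hsa-miR-103, hsa-miR-107, hsa-miR-503 and hsa-miR-646, which are 8 of the 851 human miRNA names on the array, and their summed signal is called the pool. RNA was recovered by immunoprecipitation with an antibody against human Argonaute 2 (Ago2) from Hep G2, a human liver cancer cell line, and was profiled on 3 Agilent single-colour arrays that lay on 1 slide. The non-treated (NT) array held cells without transfection, and the miR-195 and miR-497 arrays held cells given 5 nM of the respective double-stranded mimic with Lipofectamine RNAiMAX and collected 24 hours later (miR-195 cells and miR-497 cells). Each group was 1 array, so no difference has a replicate check and no test between groups was possible, and the labels name no control transfected with a negative-control duplex. An SD given below is the spread between spots of 1 array and covers technical error within that array only.

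A miRNA guides Ago2 to target transcripts mainly by pairing through its seed, which is bases 2 to 8 counted from the 5′ end. miRNAs with the same seed can recognise overlapping sets of targets, and they share a limited supply of Ago2 with all other miRNAs of the cell. The miR-15/miR-16 family is known for repressing cell-cycle genes such as cyclins and the anti-apoptotic gene BCL2, while miR-103 and miR-107, encoded within introns of pantothenate kinase genes, are known for roles in lipid and insulin metabolism. The question addressed here is how large the pool loaded in Ago2 was, and which members made it up, beside the transfected miRNA.

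The mature sequences show which relatives carry the seed of the mimics and which carry a shifted or altered one. They were read from RefSeq (GRCh38.p14), where all 10 names matched, and are written 5′ to 3′ with bases 2 to 8 in capitals. The first 2 lines are the transfected miRNAs.
hsa-miR-195: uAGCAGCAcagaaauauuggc
hsa-miR-497: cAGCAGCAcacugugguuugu
hsa-miR-16: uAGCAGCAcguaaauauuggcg
hsa-miR-15b: uAGCAGCAcaucaugguuuaca
hsa-miR-15a: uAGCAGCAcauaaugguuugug
hsa-miR-424: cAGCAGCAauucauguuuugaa
hsa-miR-103: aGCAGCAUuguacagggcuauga
hsa-miR-107: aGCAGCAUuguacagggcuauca
hsa-miR-503: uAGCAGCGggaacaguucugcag
hsa-miR-646: aAGCAGCUgccucugaggc

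Both mimics, hsa-miR-15a, hsa-miR-15b, hsa-miR-16 and hsa-miR-424 had the same bases 2 to 8, a group of 6 names. In hsa-miR-103 and hsa-miR-107 the AGCAGC hexamer began 1 base earlier, so that bases 2 to 8 read GCAGCAU. hsa-miR-503 and hsa-miR-646 each differed from the mimics in the last base of the seed and formed a seed group of 1 name each. hsa-miR-103 and hsa-miR-107 differed from each other by the single substitution G22C, with positions counted from the 5′ end and the base of hsa-miR-103 written first.

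Outside the seed the relatives differed in how close they were to each mimic. When aligned from the 5′ end without gaps, hsa-miR-16 matched hsa-miR-195 at 19 of 21 bases, and the differences were A10G and G11U (hsa-miR-195 first). It matched hsa-miR-497 at 11 of 21. hsa-miR-15a was closer to hsa-miR-497, with 17 identical bases compared with 15 for hsa-miR-195. hsa-miR-103 and hsa-miR-107, with their shifted hexamer, matched hsa-miR-195 at 2 bases and hsa-miR-497 at 4 in this alignment.

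Several members lie in clusters. In GRCh38.p14 hsa-miR-15a (chr13:50049167-50049188) and the first copy of hsa-miR-16 (chr13:50049027-50049048) lie on the minus strand within the non-coding gene DLEU2. hsa-miR-15b (chr3:160404607-160404628) and the second copy of hsa-miR-16 (chr3:160404754-160404775) lie on the plus strand within the spans of SMC4, a condensin subunit gene, and of the readthrough gene TRIM59-IFT80. The mature hsa-miR-16 of both copies is the same, and the array cannot tell them apart. hsa-miR-103 comes from copies within PANK3 (chr5:168560904-168560926, minus strand) and PANK2 (chr20:3917541-3917563, plus strand), and hsa-miR-107 from PANK1 (chr10:89592756-89592778, minus strand). The X-linked hsa-miR-424 (chrX:134546680-134546701) and hsa-miR-503 (chrX:134546371-134546393) neighbour each other on the minus strand, and hsa-miR-646 (chr20:60308534-60308552) lies within MIR646HG. The transfected pair is encoded together within MIR497HG on chromosome 17.

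Before the levels, the arrays themselves are described. Human miRNAs well above background, meaning that the scanner software set this flag on more than 50% of the used spots of at least 1 probe, numbered 168 on the NT array, 153 on the miR-195 array and 121 in miR-497 cells. The miR-497 array was dim throughout, with a 75th percentile of 263 intensity units over 183 shared detected probes, compared with 827 and 778 on the NT and miR-195 arrays. Of the liver markers, hsa-miR-122, the most abundant miRNA of hepatocytes, was not well above background on any array, while hsa-miR-192, hsa-miR-194 and hsa-miR-215 were on all 3. Of 4 blood-cell markers, hsa-miR-142-3p (397 to 1521 units) and hsa-miR-142-5p (57.1 to 191 units) were detected and hsa-miR-223 and hsa-miR-451 were not, and 0 of 3 muscle markers were detected. The part of other cells in the signals was not tested.

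In non-treated cells the pool gave 16589 intensity units (spot SD 483), which was 6.97% (spot SD 0.268 points) of the signal of all human miRNAs other than the strands of the mimics. On the miR-195 array it gave 16272 units (spot SD 454), or 7.59% (spot SD 0.244 points). In miR-497 cells it gave 5792 units (spot SD 271), or 5.89% (spot SD 0.361 points). The total was itself much smaller in miR-497 cells, 98311 units compared with 237903 and 214394. The share there depended on the processing. It was 2.84% compared with 4.57% (NT) and 4.77% (miR-195) with the normexp background, and 3.66% compared with 5.40% and 6.01% with the software total per miRNA. The normexp background adds an offset to every spot, which also gives signal to undetected miRNAs and enlarges the total. With it the pool of miR-497 cells was brighter, at 7004 units, and yet a smaller share of that total. The part of the offset in the normexp shares was not tested. Counted as if it were 1 miRNA, the pool ranked 4, 2 and 5 among the endogenous miRNAs of the 3 arrays. The brightest miRNA of the cluster from hsa-miR-17 to hsa-miR-92a gave 16778, 15177 and 6990 units. On the NT array it lay above the pool by less than the spot SD of the pool, so the ranks show no clear shift of the pool.

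The share of the pool was lowest where that of 1 abundant miRNA was highest. hsa-miR-21, an oncogenic miRNA that led the endogenous signal, took 30.0% of it on the NT array, 25.0% on the miR-195 array and 38.2% in miR-497 cells. When hsa-miR-21 was left out of the total, a choice made after the data were seen, the pool held 9.96%, 10.1% and 9.53% in the same order. The lower share in miR-497 cells then lay much closer to the others. This removal was not repeated with the normexp background or the software total, and the part of hsa-miR-21 in the lower share was not tested.

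Other miRNA groups give a scale for this size. The cluster that runs from hsa-miR-17 to hsa-miR-92a, 6 miRNAs known as oncogenic, held 19.9%, 20.6% and 18.6% of the endogenous signal. The let-7 family held 1.92%, 1.97% and 1.55%, and the miR-30 family held 0.411%, 0.451% and 0.295%. On each array the pool lay between that cluster and let-7. Signals of different miRNAs depend on their probes, so that such shares are shares of array signal and not of molecules.

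Each transfected miRNA was brighter than the whole pool on its own array. In miR-195 cells hsa-miR-195 gave 38522 units (spot SD 2126), 2.37 ± 0.146 (spot SD) times the pool. In miR-497 cells hsa-miR-497 gave 7903 units (spot SD 772), 1.36 ± 0.148 times the pool. The pool thus corresponded to 42.2% of the hsa-miR-195 signal and to 73.3% of the hsa-miR-497 signal. The ratio was 1.74 ± 0.217 times as high on the miR-195 array, a difference larger than the spot SD, but it was taken between different probes and without replicate arrays.

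In non-treated cells the roles were inverted. hsa-miR-195 gave 45.3 units, 0.273% of the pool, and hsa-miR-497 was not well above background at 11.8 units. hsa-miR-195 and hsa-miR-497 together were 0.344% of the pool on that array, 237% on the miR-195 array and 137% in miR-497 cells. Against hsa-miR-16 alone, which is nearest to it in sequence, hsa-miR-195 was at 0.793% on the NT array and at 603% on the miR-195 array. The other mimic was near the low end of detection on each transfected array, with 45.4 units of hsa-miR-497 in miR-195 cells and 32.8 units of hsa-miR-195 in miR-497 cells.

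**Figure D1:**
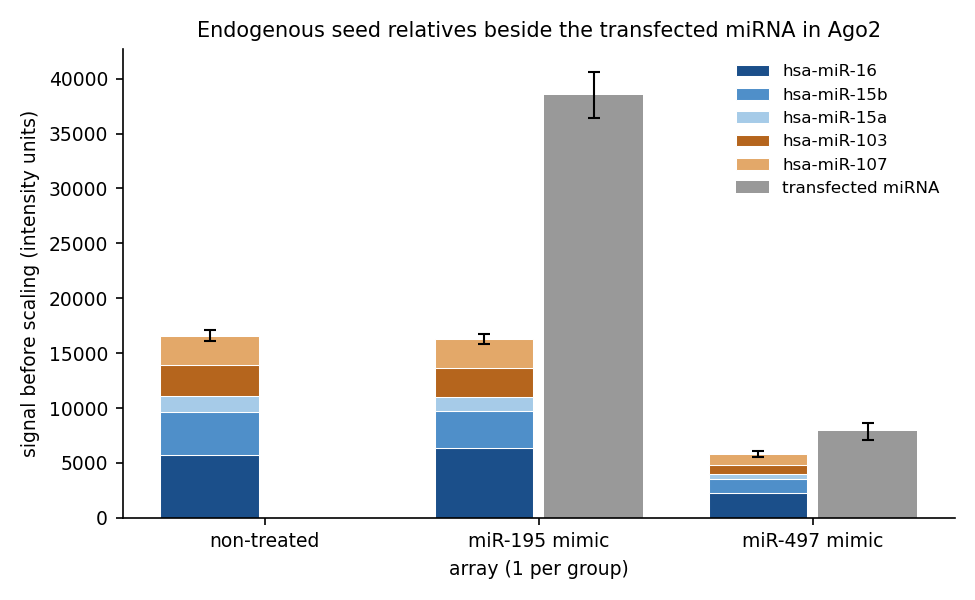
Signal before scaling in intensity units on each array (1 per group), with the 5 measured members stacked on the left and the transfected miRNA as a grey bar on the right; error bars are the spot SD of the sum or of the transfected miRNA. The pool stood at 16589, 16272 and 5792 units, and the transfected miRNA exceeded it on both arrays, at 38522 and 7903 units.

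Only a part of the pool carries the same bases 2 to 8 as the mimics. The miR-15/miR-16 members, with hsa-miR-424 included, gave 11085 units (spot SD 414), 11017 units (spot SD 403) and 3987 units (spot SD 251) on the NT, miR-195 and miR-497 arrays, which was 66.8%, 67.7% and 68.8% of the pool. hsa-miR-103 and hsa-miR-107 gave 5513 units (spot SD 249), 5270 units (spot SD 208) and 1814 units (spot SD 104), or 33.2%, 32.4% and 31.3%. The ratio of the first group to the second was 2.01 ± 0.118, 2.09 ± 0.113 and 2.20 ± 0.187, and these ratios lay within the spot SD of each other.

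Against the same-seed members alone, hsa-miR-195 was 3.50 ± 0.232 times and hsa-miR-497 1.98 ± 0.230 times as bright. The transfected miRNA therefore made up 77.8% of the signal with this seed on the miR-195 array and 66.5% in miR-497 cells. Counted with the mimic, the signal of the seed was 4.50 times the endogenous signal on the first array and 2.98 times on the second. The passenger strand of the mimic, the strand that is usually discarded, was at 10321 units on the miR-195 array, 63.4% of the pool, and at 272 units in miR-497 cells, 4.69% of the pool.

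hsa-miR-16, the member with genes in both the DLEU2 and the SMC4 cluster, was the brightest. It gave 5713 units (spot SD 364) on the NT array, 6387 units (spot SD 379) on the miR-195 array and 2278 units (spot SD 238) in miR-497 cells. It was thus highest on the miR-195 array before scaling. It made up 34.4% (spot SD 1.58 points), 39.3% (spot SD 1.54 points) and 39.3% (spot SD 2.65 points) of the pool, and ranked 7, 9 and 8 among human miRNAs well above background. With the strands of the mimics left out it ranked 7 on every array.

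hsa-miR-15b, processed from the same transcript as the second copy of hsa-miR-16, came next. It gave 3937 units (spot SD 178), 3349 units (spot SD 104) and 1271 units (spot SD 66.8), and was highest on the NT array. Its share of the pool was 23.7% (spot SD 1.04 points), 20.6% (spot SD 0.754 points) and 21.9% (spot SD 1.34 points). hsa-miR-15a, the partner of the first copy of hsa-miR-16, was the dimmest of the measured members, with 1433 units (spot SD 85.6), 1280 units (spot SD 89.0) and 436 units (spot SD 41.7), or 8.64%, 7.87% and 7.52% of the pool.

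hsa-miR-103 and hsa-miR-107 were nearly equal in signal. hsa-miR-103 gave 2796 units (spot SD 226), 2616 units (spot SD 77.3) and 829 units (spot SD 77.9) on the NT, miR-195 and miR-497 arrays. hsa-miR-107 gave 2718 units (spot SD 106), 2654 units (spot SD 193) and 985 units (spot SD 68.4). Their ratio was 1.03 ± 0.0922, 0.986 ± 0.0774 and 0.842 ± 0.0984. The ratio lay within 1 spot SD of 1 on the NT and miR-195 arrays, while hsa-miR-107 was the higher by more than the spot SD in miR-497 cells. All other neighbours in the order of levels were further apart than their spot SD. Since hsa-miR-103 and hsa-miR-107 differ at 1 base near the 3′ end, the part that each takes of their joint signal is uncertain.

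The remaining 3 members were at background. hsa-miR-424 gave 0.637, -0.353 and 1.80 units, hsa-miR-503 gave -6.47, -9.31 and -6.83 units, and hsa-miR-646 gave -2.43, -4.79 and -1.38 units. None reached the level of detection. At the lowest signal of a detected human miRNA, each would hold 0.0671%, 0.146% and 0.330% of the pool, and the 3 together 0.201%, 0.437% and 0.990%. This is a guide and no strict limit. On the NT array hsa-miR-15b* was undetected at 17.0 units, above the lowest detected signal of 11.1 units. The pool as measured was therefore 5 of the 8 names on each array.

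**Figure D2:**
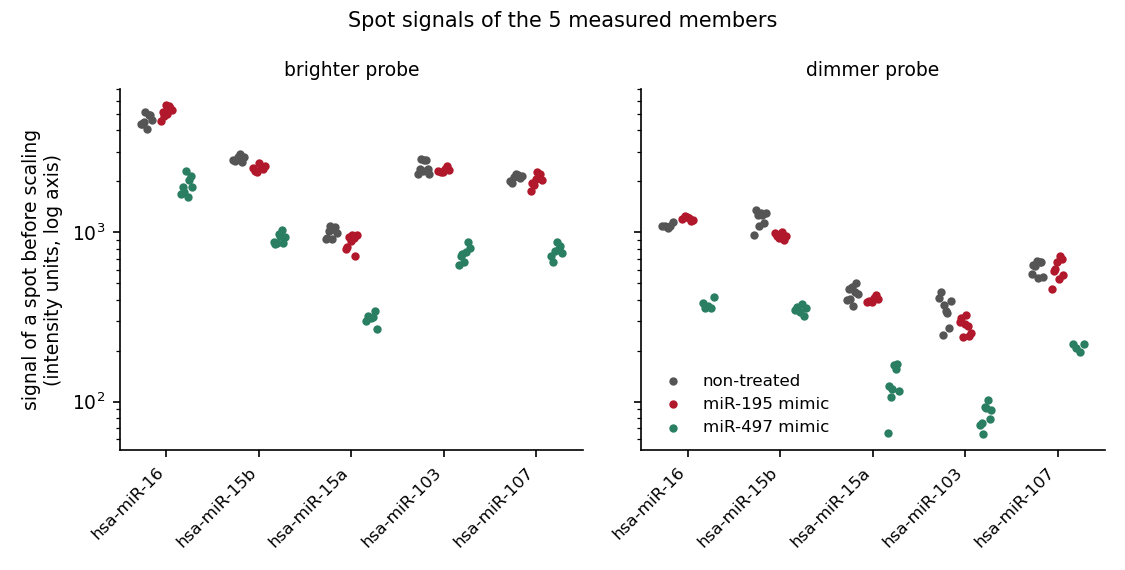
Signal of each used spot before scaling (intensity units, log axis) for the brighter and the dimmer probe of the 5 measured members, with colours for the NT, miR-195 and miR-497 arrays. The spots of the miR-497 array lay below those of the other arrays for every member and both probes, while those of the NT and miR-195 arrays overlapped for most probes.

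Each measured member had a pair of probes of unequal brightness. The brighter probe took between 68.7% of the signal (hsa-miR-15a, miR-195 array) and 90.0% (hsa-miR-103, miR-497 array). For hsa-miR-16 the brighter probe read 4078 to 5124 units over 8 spots of the NT array, with a median of 4560, and 4543 to 5622 units over 8 spots of the miR-195 array, with a median of 5234. The ranges overlapped. Its dimmer probe read 1063 to 1148 units over 5 spots of the NT array and 1166 to 1256 units over 6 spots of the miR-195 array, but with the outlier-flagged spots kept the ranges were 824 to 1342 and 750 to 1256 units over 8 spots each and overlapped. The brighter probe of hsa-miR-15b read 2592 to 2903 units over 6 spots of the NT array and 2267 to 2551 units over 7 spots of the miR-195 array, and with all 8 spots the ranges overlapped as well, at 2283 to 3188 and 2267 to 2734 units. Spots are repeats within 1 array and say nothing of the spread between cultures.

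After each array was divided by the 75th percentile of its shared detected probes, the pool differed little from its non-treated level. Several other scalings did not share this result. The pool differed from the NT array by 0.06 log2 units (spot SD 0.06) in miR-195 cells and by 0.13 (spot SD 0.08) in miR-497 cells, and miR-497 cells differed from miR-195 cells by 0.07 (spot SD 0.08). The medians over all measured human miRNAs were -0.01, 0.03 and 0.02. The first 2 comparisons share the NT array. With spike-in scaling the pool stood at 0.33 and -1.06 against NT and the medians at 0.26 and -1.16. With the percentile over all probes the pool stood at -0.48 and -1.25 and the medians at -0.55 and -1.36. With quantile normalization the pool stood at -0.40 and -0.26 and the medians at -0.20 and -0.12, and with the normexp background the pool stood at 0.05 and 0.10 and the medians at 0.03 and 0.46. Without scaling the difference of the pool from NT was -0.028 in miR-195 cells and -1.52 in miR-497 cells.

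None of the 5 measured members differed by 2-fold in either direction in any of the 3 comparisons. On the miR-195 array against NT, 2.72% of 147 measured human miRNAs were at least 2-fold higher and 0.68% at least 2-fold lower. In miR-497 cells against NT the background was 3.39% of 118 higher and 0.0% lower, and between the transfected arrays it was 1.71% of 117 higher and 0.0% lower. A count of 0 among 5 members was therefore close to the background. Without scaling all 5 members fell by at least 2-fold between the NT and miR-497 arrays, as did 95.8% of all measured miRNAs, and all 5 also did from miR-195 to miR-497 cells, as did 97.4%.

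hsa-miR-16 had the highest scaled difference of the members on both transfected arrays, though not with quantile normalization. It was 0.25 log2 units (spot SD 0.13) above NT on the miR-195 array and 0.32 (spot SD 0.18) in miR-497 cells, directions that turned to -0.29 and -1.06 with the percentile over all probes and to -0.41 and -0.16 with quantile normalization, and in miR-497 cells also to -1.33 without scaling, to -0.87 with spike-in scaling and to -1.29 in the deposited table. With quantile normalization hsa-miR-107 (-0.20), hsa-miR-15a (-0.28) and hsa-miR-103 (-0.28) stood above hsa-miR-16 in miR-195 cells and hsa-miR-107 (-0.04) did in miR-497 cells, and the medians of all miRNAs were -0.20 and -0.12. With the normexp background hsa-miR-16 stood at 0.17 in miR-497 cells, below a median of 0.46. After the scaling used here 79.6% of the measured miRNAs lay below it in the first comparison and 85.6% in the second. Both its probes were higher after the scaling used here on each array, by 0.25 and 0.22 on the miR-195 array and by 0.37 and 0.11 in miR-497 cells. Before scaling the 2 probes of hsa-miR-16 were the only ones of the 10 probes of the measured members that were higher on the miR-195 array than on the NT array, by 0.17 and 0.14. The other 4 measured members were lower there before scaling, as were 61.2% of the 147 miRNAs.

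The other members differed by less. hsa-miR-15b stood at -0.15 (spot SD 0.08) on the miR-195 array and 0.02 (spot SD 0.10) in miR-497 cells, and hsa-miR-15a at -0.08 (spot SD 0.13) and -0.07 (spot SD 0.16). hsa-miR-103 stood at -0.01 (spot SD 0.12) and -0.10 (spot SD 0.18), and hsa-miR-107 at 0.05 (spot SD 0.12) and 0.19 (spot SD 0.11). Except for hsa-miR-15b on the miR-195 array and hsa-miR-107 in miR-497 cells, these values were within 1 spot SD of 0.

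**Figure D3:**
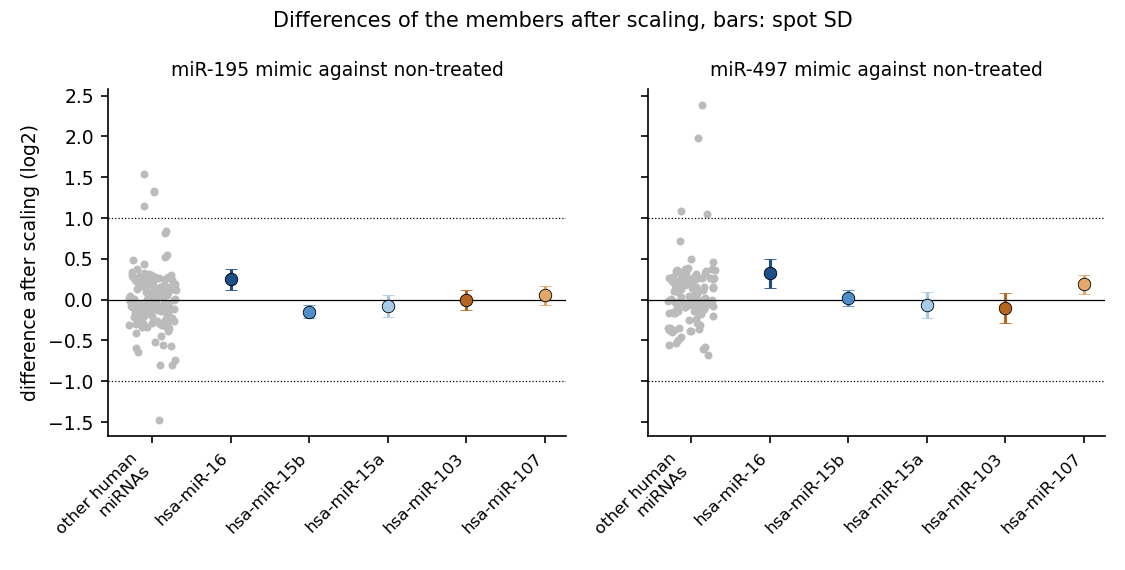
Scaled log2 difference from the NT array for the 5 measured members (coloured points with spot SD) beside the other measured human miRNAs (grey points), with dotted lines at 2-fold. hsa-miR-16 stood highest among the members at 0.25 and 0.32, and no member reached 2-fold; both values of hsa-miR-16 turned negative with quantile normalization and with the percentile over all probes.

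Ratios between members of 1 array do not depend on a scaling by 1 factor per array. hsa-miR-16 over hsa-miR-15b was 1.45 ± 0.113 on the NT array, 1.91 ± 0.128 on the miR-195 array and 1.79 ± 0.210 in miR-497 cells. The ratio was thus 1.31 times its NT value on the miR-195 array, a log2 change of 0.39 (spot SD 0.15), and 1.24 times in miR-497 cells, a change of 0.31 (spot SD 0.20). hsa-miR-16 over hsa-miR-15a was 3.99 ± 0.348, 4.99 ± 0.456 and 5.23 ± 0.741, a log2 change of 0.32 (spot SD 0.18) and 0.39 (spot SD 0.24). hsa-miR-16 over hsa-miR-103 was 2.04 ± 0.210, 2.44 ± 0.162 and 2.75 ± 0.386, a log2 change of 0.26 (spot SD 0.18) and 0.43 (spot SD 0.25). The ratio of hsa-miR-16 to hsa-miR-107 changed least, by 0.20 and 0.14 log2 units. These changes are all taken against the same NT array. By contrast hsa-miR-15b over hsa-miR-15a was 2.75 ± 0.206, 2.62 ± 0.199 and 2.92 ± 0.318, and its changes were within the spot SD. These changes depend on the normalization. With quantile normalization, which changes values within an array unequally, hsa-miR-16 over hsa-miR-15a changed by -0.14 and 0.06 in miR-195 and miR-497 cells, hsa-miR-16 over hsa-miR-103 by -0.13 and 0.17, and hsa-miR-15b over hsa-miR-15a by -0.37 and -0.29. The change of hsa-miR-16 over hsa-miR-15b was 0.23 and 0.36 with this normalization, and that of hsa-miR-16 over hsa-miR-107 was -0.22 and -0.12.

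The share of hsa-miR-16 in the pool was higher than on the NT array by 4.81 points (spot SD 2.21) on the miR-195 array and by 4.89 points (spot SD 3.08) in miR-497 cells. With the normexp background the share of hsa-miR-16 was higher by 4.42 and 1.59 points, so that the gain in miR-497 cells was much smaller. The share of hsa-miR-15b changed by -3.15 points (spot SD 1.28) and by -1.80 points (spot SD 1.70). The gain of hsa-miR-16 before scaling on the miR-195 array was 674 units, which is 1.75% of the hsa-miR-195 signal of that array. hsa-miR-195 matched hsa-miR-16 at 19 of 21 bases, and the part of a cross-reaction of the hsa-miR-16 probes with the mimic was not tested.

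**Figure D4:**
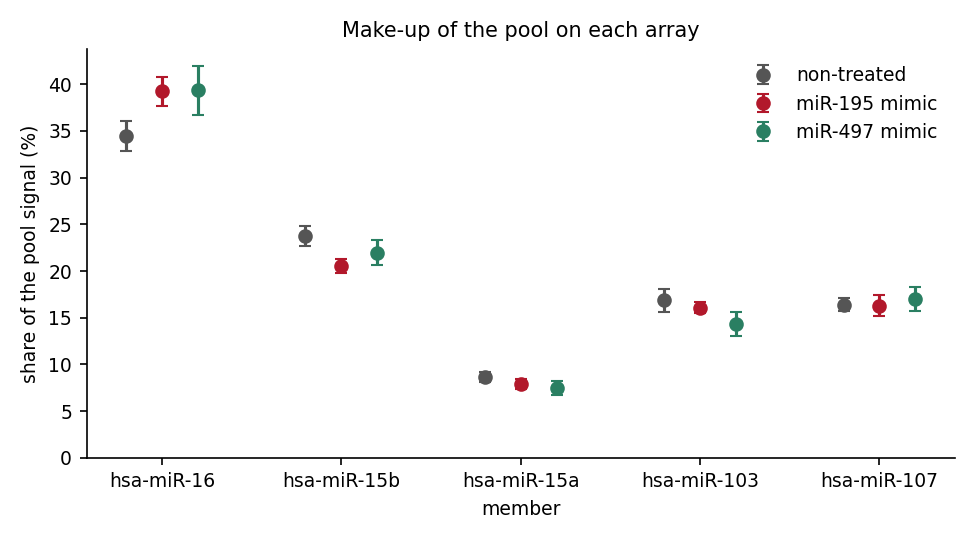
Share of the pool signal in percent for each measured member on the NT, miR-195 and miR-497 arrays, with the spot SD as error bars. hsa-miR-16 held 34.4% on the NT array and 39.3% on both transfected arrays, while hsa-miR-15b went from 23.7% to 20.6% and 21.9%. With the normexp background, whose offset also gives signal to the members at background, hsa-miR-16 held 32.8%, 37.3% and 34.4% in the same order.

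The passenger strands of the members were dim. hsa-miR-15a*, hsa-miR-15b*, hsa-miR-16-1* and hsa-miR-424* lay below detection throughout. hsa-miR-16-2* was detected by 1 of 4 probes on the NT array alone, at 35.7 units, and lay below detection at 13.6 and 15.5 units in miR-195 and miR-497 cells.

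The 3 miRNAs whose pair of scaled differences from NT was nearest to that of the pool, among 112 candidates and over 3 arrays, were hsa-miR-106b (0.05 and 0.16), hsa-miR-26b (0.09 and 0.10) and hsa-let-7a (0.02 and 0.09). Their Euclidean distances from the pool were 0.030, 0.048 and 0.057 log2 units. With 2 differences per miRNA that share the NT array, this likeness is a description only.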

How the data were processed

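Ago2-bound RNA from 3 samples was hybridised to 1 array each, and 10 ng of RNA was labelled with Cy3. The deposited scanner files hold spot intensity on a linear scale from Agilent Feature Extraction 10.7.1.1, background-subtracted by the authors' scanner software and not scaled between arrays. The authors also deposited a table of log2 values from GeneSpring, used here as an alternative. Groups came from the sample labels. Control spots and spots with an outlier flag were left out, the remaining spots were averaged per probe, and probe means were summed per miRNA. Signals were divided by the 75th percentile of 183 shared detected probes for differences between arrays and used unscaled for shares and ratios. The spot SD of a sum is the root of the summed squared probe SDs. No spot was saturated, and with 1 array per group precision is limited by the number of arrays. The members and comparison lists were chosen with earlier results of these data known. Named miRNAs were the members, the mimics, passenger strands, markers and the 3 miRNAs nearest to the pool. The calculation was tested on simulated data in which 1 array was dimmed by a common factor, so that test cannot decide between scalings. Python 3.11.15, pandas 2.3.3 and limma 3.58.1 (normexp, offset 50) were used. Alternatives covered background, spots, probe summary, denominator and scaling.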

Additional observations from a re-analysis of the deposited data

How the results depend on the processing

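No paired analysis was possible because each group held 1 array and the labels give no replicate numbers, and for the same reason no replicate could be left out. Of the values of the pool 99 stayed the same and 49 moved. A signal, share, ratio or difference counted as the same when it stayed within the spot SD of the reported value. The counts of members past 2-fold were among these values, have no spot SD and counted as the same when unchanged. Many of the 99 were such unchanged counts, so the 99 overstate how steady the measured values of the pool were. The pool difference of miR-497 cells from NT, reported as 0.13, turned negative and past 2-fold under some settings. These were no scaling (-1.52), the deposited table (-1.48), the percentile over all probes (-1.25) and spike-in scaling (-1.06). The order of the pool and the mimic held under every background and summary tried, but most of these could hardly change it. On each array the software total, which the deposited table carries, was a near-constant fraction of the probe sum for the measured members and the mimic. The summaries by mean or by detected probes cancel in the ratio as well. Keeping all spots gave ratios of 2.36 and 1.36, and the normexp background gave 2.23 and 1.17 (miR-195 and miR-497 arrays). With the normexp background the pool was 17748, 17593 and 7004 units on the NT, miR-195 and miR-497 arrays, its share 4.57%, 4.77% and 2.84%, and hsa-miR-497 over the pool 1.17. With the software total per miRNA, which was 0.515 to 0.531 of the probe sum for the measured members, the pool was 8620, 8381 and 3079 units, its share 5.40%, 6.01% and 3.66%, and its log2 differences -0.032, -0.16 and -0.13 (miR-195 against NT, miR-497 against NT, miR-497 against miR-195). With the deposited table it was 8623, 8384 and 3082 units, with differences of -0.041, -1.48 and -1.44. With the mimic strands in the denominator the share was 6.18% and 5.44% on the transfected arrays, and without hsa-miR-21, an alternative chosen after seeing the data, 9.96%, 10.1% and 9.53%. Against the same-seed members alone the ratios were 3.50 and 1.98. The differences of the pool, in the same order, were -0.48, -1.25 and -0.77 with the percentile over all probes, and -0.028, -1.52 and -1.49 with no scaling. They were 0.33, -1.06 and -1.39 with spike-in scaling. With the median of the shared probes they were 0.24 and 0.20 for the last 2 comparisons, and with quantile normalization -0.40 and -0.26 for the first 2. The median of all miRNAs moved with these scalings, by -0.54, -1.38 and -0.85 log2 units for the percentile over all probes, -0.09, -1.65 and -1.56 without scaling, 0.27, -1.19 and -1.46 for the spike-ins, and -0.04, -1.47 and -1.47 for the deposited table. The members that fell by at least 2-fold from NT to miR-497 numbered 5 in the deposited table, with the percentile over all probes and without scaling, and 4 with spike-in scaling. Against the miR-195 array they numbered 5 in the deposited table, without scaling and with spike-in scaling. Without scaling 95.8% of 118 measured miRNAs fell as far from NT, and 97.4% of 117 from the miR-195 array. For the other settings this share was not counted, but the median of all miRNAs against NT was itself -1.44 in the deposited table, -1.36 with the percentile over all probes and -1.16 with spike-in scaling. These counts are therefore no result about the members. Member differences changed sign in 53 of 150 recalculations, all below 2-fold in the reported fit. hsa-miR-16 over hsa-miR-15b, tried after seeing the data, was 1.45 to 1.46, 1.87 to 1.91 and 1.73 to 1.79 over 4 alternatives. Among these, the software total and the use of detected probes alone return the reported ratio by construction. Quantile normalization was not among them, and with it the log2 change of this ratio from NT was 0.23 in miR-195 cells and 0.36 in miR-497 cells.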

Other observations

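The software total of hsa-miR-16-2* on the NT array was 2973 units, while its own probes summed to 35.7 units. The total of hsa-miR-16 on that array was 2967 units, so that the value listed for hsa-miR-16-2* was that of hsa-miR-16 plus 6.05 units. The deposited table carries it as 11.54 on the log2 scale on the NT array and 0 on both transfected arrays. The totals of the 5 measured members were 0.515 to 0.531 of their probe sums on all 3 arrays.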
